A study of Mus musculus with 6 samples.

Results

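The genes described are 9 that macrophages use to take up lipoproteins, debris and dying cells: the scavenger receptor genes Msr1, Marco, Cd36, Scarb1, Stab1 and Cd163, the receptor kinase genes Mertk and Axl, and Gas6, which encodes their ligand. They were chosen by symbol, and every peak whose Gene Name in the deposited annotation was one of these symbols was taken, irrespective of its height. This gave 190 of the 134964 peaks in the 6 lists. Overlapping peaks were merged across the lists, which left 72 member regions of 60856 regions in all. All 9 genes had at least 1 C/EBPα peak and 1 IRF8 peak in both conditions, whereas JUNB peaks were assigned to 4 of them, Cd36, Msr1, Cd163 and Axl.

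Bone marrow-derived macrophages of wild-type mice, aged 8 to 12 weeks, were differentiated for 6 days in medium with L929 supernatant, a source of M-CSF. They were left unstimulated (control) or given 20 ng/ml interleukin-4 (IL-4) for 1 h, then double cross-linked with DSG and formaldehyde. ChIP-seq was performed with antibodies against C/EBPα, IRF8 or JUNB, 1 library for each factor in each condition. The 3 control and 3 IL-4 libraries thus shared genotype, culture and cross-linking and differed in antibody and in the cytokine, with no second sample of any group and no test of an IL-4 difference against replicate spread.

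Scavenger receptors bind oxidised or acetylated lipoproteins and other polyanionic ligands, and several of them also bind phosphatidylserine or bridging proteins on apoptotic cells. Efferocytosis, the engulfment of apoptotic cells, proceeds partly through the TAM receptor kinases, among them Mertk and Axl, which recognise phosphatidylserine through the secreted protein Gas6. C/EBPα is a lineage factor of myeloid cells, IRF8 binds mostly together with ETS factors such as PU.1 at composite elements, and JUNB is a subunit of AP-1.

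The sequences of 7 regions are given to show which recognition letters lay under the peaks that recur in the results. They include 2 Cd36 enhancers with JUNB peaks, the Scarb1 region with the highest C/EBPα score and the Cd163 region with a JUNB peak in control. The other 3 are regions where IRF8 had no C/EBPα peak beside it or ranked far above C/EBPα. Each sequence is the central 200 bp of its merged region, from the RefSeq copy of GRCm38.p6 (mm10), plus strand. Capitals mark matches, on either strand and allowed to overlap, to TTGCNNAA (C/EBP), GGAANTGAA (the ETS-IRF composite), GAAANNGAA (IRF), TGAGTCA (AP-1) or a STAT half-site pair, TTC and GAA separated by 3 or 4 bases. Regions are named by the gene and the distance in bp of their strongest peak from the annotated transcription start site (TSS), negative where upstream. The windows lie at chr5:17880022-17880221 (Cd36 8834), chr5:17857384-17857583 (Cd36 -7696), chr5:125273730-125273929 (Scarb1 67209), chr2:128709552-128709751 (Mertk 10655), chr8:39618918-39619117 (Msr1 23656), chr1:120510410-120510609 (Marco -5426) and chr6:124319642-124319841 (Cd163 15091).
Cd36 8834: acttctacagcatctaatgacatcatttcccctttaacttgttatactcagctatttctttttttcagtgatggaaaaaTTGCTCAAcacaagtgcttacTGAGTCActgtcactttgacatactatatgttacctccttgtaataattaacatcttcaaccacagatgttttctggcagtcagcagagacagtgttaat
Cd36 -7696: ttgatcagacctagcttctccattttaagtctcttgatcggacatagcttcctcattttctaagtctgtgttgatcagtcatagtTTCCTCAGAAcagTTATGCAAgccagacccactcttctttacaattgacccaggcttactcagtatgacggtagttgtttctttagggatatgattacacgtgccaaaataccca
Scarb1 67209: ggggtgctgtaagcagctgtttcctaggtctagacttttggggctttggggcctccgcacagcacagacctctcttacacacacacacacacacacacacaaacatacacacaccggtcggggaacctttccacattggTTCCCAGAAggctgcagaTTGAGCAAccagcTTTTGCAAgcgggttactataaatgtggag
Mertk 10655: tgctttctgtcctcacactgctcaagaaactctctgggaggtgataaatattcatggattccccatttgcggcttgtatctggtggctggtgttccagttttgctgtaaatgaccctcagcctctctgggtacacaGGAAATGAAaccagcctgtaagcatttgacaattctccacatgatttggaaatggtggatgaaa
Msr1 23656: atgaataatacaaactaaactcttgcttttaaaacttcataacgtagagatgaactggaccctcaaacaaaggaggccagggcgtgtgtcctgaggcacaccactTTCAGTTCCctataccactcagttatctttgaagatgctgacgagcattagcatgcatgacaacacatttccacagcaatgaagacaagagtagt
Marco -5426: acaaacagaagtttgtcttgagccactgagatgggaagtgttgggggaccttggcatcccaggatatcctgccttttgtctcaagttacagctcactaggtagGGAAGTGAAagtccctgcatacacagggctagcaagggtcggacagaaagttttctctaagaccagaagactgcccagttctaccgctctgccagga
Cd163 15091: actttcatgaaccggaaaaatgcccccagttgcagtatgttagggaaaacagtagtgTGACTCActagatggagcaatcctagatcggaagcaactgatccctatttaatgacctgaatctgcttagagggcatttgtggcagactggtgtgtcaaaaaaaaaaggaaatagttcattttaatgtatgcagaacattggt

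In the Cd36 8834 window a C/EBP match began at base 80 and an AP-1 match at base 101. The Cd36 -7696 window held a STAT match at base 86 followed by a C/EBP match at base 99, and the Scarb1 67209 window a STAT match at base 140 and C/EBP matches at bases 158 and 171. An ETS-IRF match lay at base 137 of Mertk 10655, base 106 of Msr1 23656 and base 104 of Marco -5426, and an AP-1 match at base 58 of Cd163 15091. Over all member windows, C/EBP matches were present in 15 of 72 (20.8%, against 18.4% of the windows of all regions), AP-1 matches in 13.9% (against 10.9%), STAT matches in 18.1% (against 14.4%), ETS-IRF matches in 8.33% (against 8.78%) and IRF matches in 8.33% (against 13.4%). Among the 45 member windows with a C/EBPα peak 28.9% held a C/EBP match (all such windows, 30.6%), and among the 8 with a JUNB peak 3 held an AP-1 match (37.5%, against 39.2%). The Wilson 95% interval of each of the 5 member shares over all windows included the share over the series. The windows of the 2 strongest IRF8 regions, Msr1 22785 and Axl 11810, held none of the 5 patterns.

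The Peak Score is read here as the -log10 of the p or q value that the peak caller gave, from its range and its 2 decimals, since the column carries no unit. The reading is uncertain, because the lowest score of each list, 1.3 to 1.76, is below what the q-value limit in the study's methods would give. The Peak Score increases with sequencing depth, which is not known, and with antibody quality, so scores are compared between conditions for 1 factor and, between factors, only by rank within each list. A rank of 1% means that 1% of the peaks in that list scored as high or higher.

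The member genes carried 36 C/EBPα peaks in control and 40 after IL-4, 50 and 53 IRF8 peaks, and 5 and 6 JUNB peaks. The whole lists held 24486 and 24612, 37525 and 42076, and 3940 and 2325 peaks, so the JUNB list was shorter after IL-4 while its count at the member genes was not. Member peaks scored above the list median more often than not for C/EBPα (24 of 36 in control, 24 of 40 after IL-4) and IRF8 (32 of 50 and 34 of 53). Their median C/EBPα score was 20.8 in control and 15.2 after IL-4, against list medians of 11.2 in both. For IRF8 the medians were 17.8 and 14.9, against 10.3 and 9.61. The JUNB member peaks were below the list median in control (6.88 against 7.88) and above it after IL-4 (7.84 against 6.21), on only 5 and 6 peaks.

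**Figure D1:**
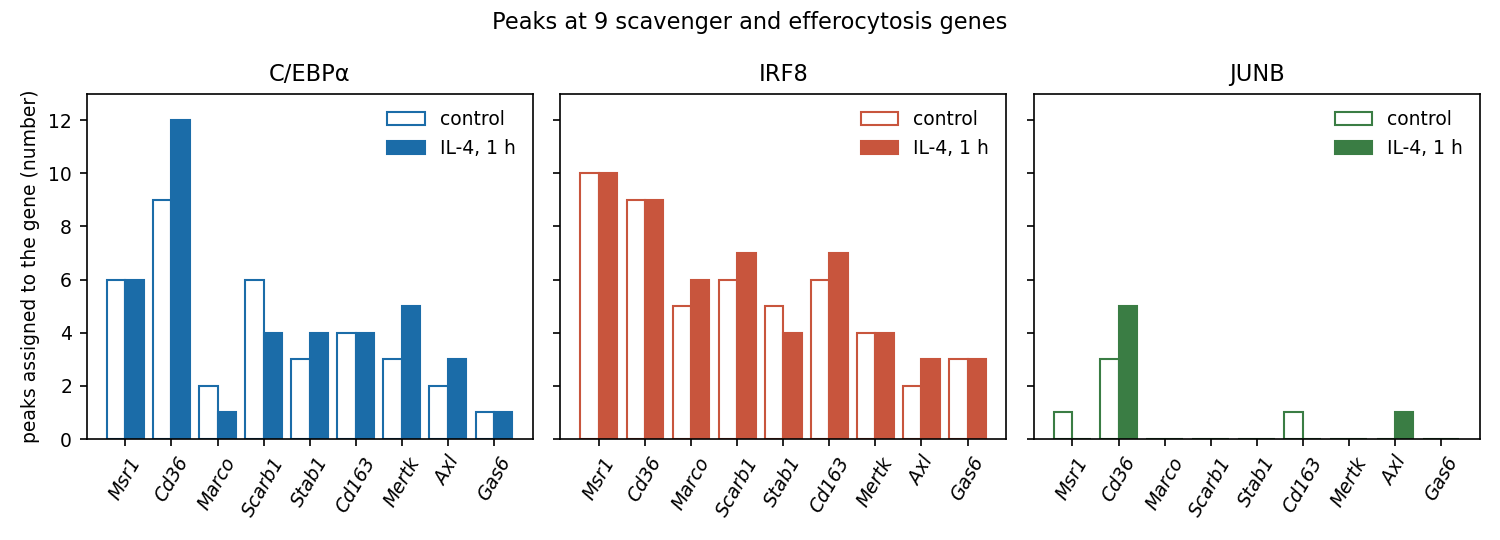
Number of peaks assigned to each of the 9 genes (vertical axis) in the C/EBPα, IRF8 and JUNB lists, with open bars for control and filled bars for 1 h IL-4, 1 library each. Cd36 reached 12 C/EBPα peaks and 5 JUNB peaks after IL-4, Msr1 had 10 IRF8 peaks in both conditions, and Gas6 had 1 C/EBPα and 3 IRF8 peaks in both.

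Most member peaks lay in introns by the deposited annotation, 132 of 190 (69.5%), compared with 45.3% of all peaks. The 132 include peaks upstream of Msr1, placed in an intron of a microRNA record, and upstream of Stab1, in introns of the neighbouring gene Nisch. Intergenic peaks made up 45 (23.7%, against 43.0%), exonic peaks 6 and peaks in the promoter-TSS class 6 (3.16%, against 7.59%), with 1 peak in a 5′ UTR. The 6 promoter peaks came from only 2 loci. At Msr1 -70 (chr8:39642574-39642933) the C/EBPα scores were 36.9 in control and 39.4 after IL-4, and the IRF8 scores 25.2 and 20.4, in each list among the highest 14.3% to 27.1%. At Cd36 55 (chr5:17835677-17836188), the start of 1 of the Cd36 transcripts, IRF8 scored 11.8 and 14.1 and no C/EBPα or JUNB peak was listed. The other 7 genes had no promoter-TSS peak of any factor. Peaks outside this class still lay within 2000 bp of a TSS, such as IRF8 at Scarb1 392 (6.03) and Marco 168 (4.99), both after IL-4 only. Fewer member peaks lay on annotated repeats than over the series, 27 of 190 (14.2%) against 21.4%. The distances, up to 67366 bp, refer to the annotated TSS and do not show which gene a region acts on.

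Cd36, a class B scavenger receptor for oxidised lipoproteins and long-chain fatty acids, had the most regions, 15, of which 14 lay within the gene, most of them in its long first intron. It was the only member with regions present in all 6 lists. There were 3 of these, where 1.63% of all regions were in all 6. Cd36 had 9 C/EBPα peaks in control and 12 after IL-4, and 1.82% of genes with a C/EBPα peak had as many as 12. Its 9 control C/EBPα peaks were all found again after IL-4. It had 9 IRF8 peaks in each condition, of which 7 were shared, 2 were in control only and 2 in IL-4 only. At Cd36 20534 (intron 4 of another transcript) a control-only IRF8 peak scored 3.66, where a C/EBPα peak of 5.61 was in IL-4 only.

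At Cd36 8834 (chr5:17879905-17880340, intron 1), where the C/EBP and AP-1 matches shown above lie, C/EBPα scored 68.1 in control and 104 after IL-4. IRF8 scored 14.5 and 24.9 there, and JUNB 18.1 and 11.6, the highest JUNB score of any member region in either condition. C/EBPα and IRF8 were thus higher after IL-4, by 1.52-fold and 1.72-fold, and JUNB was lower, at 0.643 of control. The C/EBPα peak ranked in the top 5.04% and then 2.02% of its lists, IRF8 in the top 38.3% and 22.5%.

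At Cd36 -3866 (chr5:17839505-17839950) C/EBPα scored 71.4 in control and 68.5 after IL-4, IRF8 66.7 and 35.2, and JUNB 6.88 and 9.52. IRF8 was lower at 0.528 of control while C/EBPα was nearly level. At Cd36 -7696 (chr5:17857273-17857696) C/EBPα scored 42.8 and 55.6, IRF8 21.5 and 6.58, and JUNB 3.74 and 9.31. Here JUNB was 2.49-fold higher after IL-4 and IRF8 was at 0.306 of control, so the factors moved apart at the same region. The IRF8 peak went from the top 26.8% of its list to the top 65.9%, and the JUNB peak from the top 95.2% to the top 21.3%.

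JUNB peaks at 2 more Cd36 regions were listed only after IL-4. At Cd36 -4797 (chr5:17854174-17855004) JUNB had no peak in control and a score of 5.73 after IL-4, beside C/EBPα scores of 62 and 58.2 and IRF8 scores of 72.2 and 86.0, the highest IRF8 scores of the gene. At Cd36 12069 (chr5:17876622-17877099) JUNB had no peak and then 3.38, C/EBPα 47.7 and 58.8, and IRF8 38.4 and 27. The new JUNB peaks were in the lower part of their list (top 54.9% and 88.5%). Cd36 therefore went from 3 to 5 JUNB peaks, while of the 3188 genes with a JUNB peak in either condition 570 had more peaks after IL-4, 1747 had fewer, and 41 (1.29%) had at least 2 more. Only 0.432% of the genes with a JUNB peak after IL-4 had as many as 5.

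**Figure D2:**
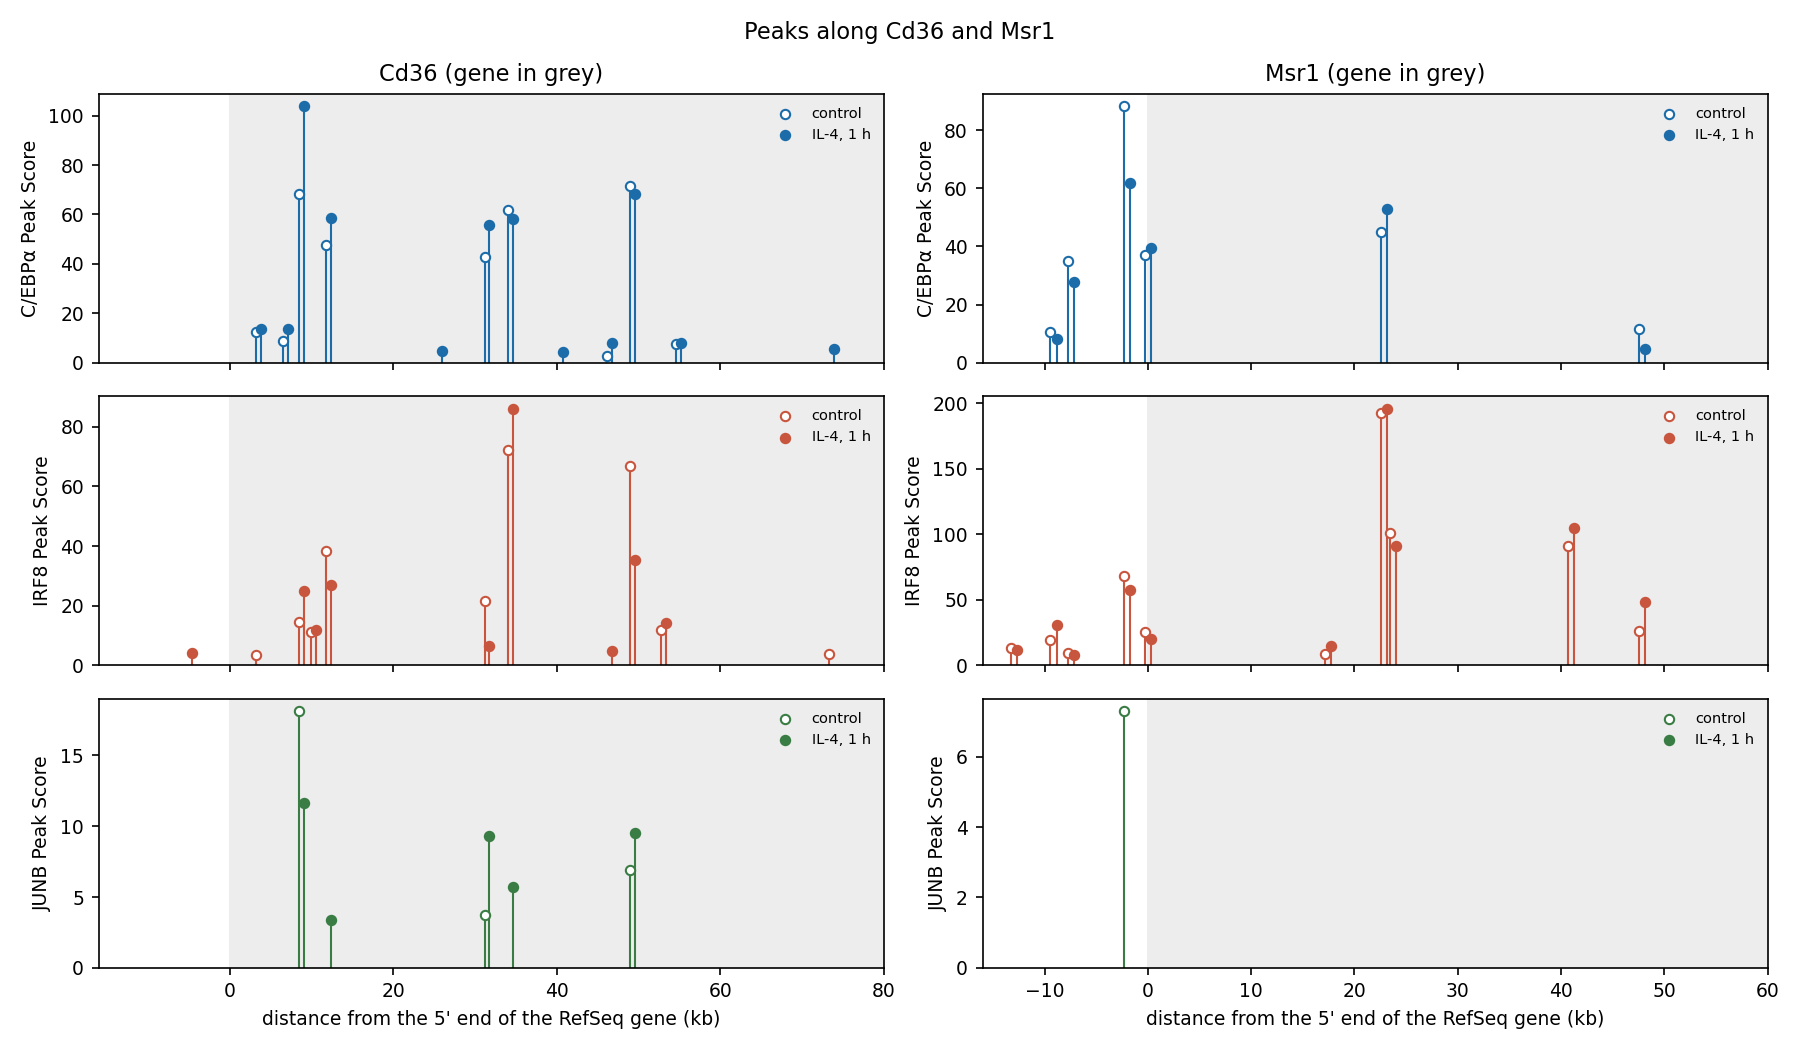
Peak Scores (vertical axis) of C/EBPα, IRF8 and JUNB along Cd36 and Msr1, against distance in kb from the 5′ end of the RefSeq gene, with open points for control, filled points for 1 h IL-4 (drawn side by side) and the gene in grey, of which only the first part is shown. The 5 Cd36 regions with a JUNB peak coincide with its 5 highest C/EBPα regions, and the highest Msr1 point is IRF8 at 193 and 196 in exon 5.

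The other class B receptor gene, Scarb1, encodes the high-density lipoprotein receptor that mediates selective uptake of cholesteryl esters. It had 6 C/EBPα peaks in control and 4 after IL-4, 6 and 7 IRF8 peaks, and no JUNB peak. At Scarb1 67209 (chr5:125273576-125274085), an intergenic region just past the 3′ end of the gene with the C/EBP and STAT matches shown, C/EBPα scored 94.7 in control and 148 after IL-4, the highest C/EBPα score of the 72 regions. It stood in the top 2.16% and 0.471% of its lists. IRF8 scored only 4.22 and 5.76 there (top 89.3% and 72.7%), so this region was ranked far higher for C/EBPα than for IRF8. At Scarb1 -17364 (chr5:125358064-125358696) C/EBPα scored 59.6 and 47.6 and IRF8 27.8 and 42.2. Scarb1 48964, in intron 7, had C/EBPα scores of 20.2 and 16.7 and IRF8 scores of 27.7 and 36.6. Of the 11 Scarb1 regions 6 appeared in 1 list only, as did 26.4% of member regions and 35.4% of all regions. Among them were 2 intronic C/EBPα peaks found only in control (5.32 and 5.22).

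Msr1 encodes the class A scavenger receptor SR-A, which binds acetylated and oxidised lipoproteins. Its 6 C/EBPα and 10 IRF8 peaks were all found in both conditions, with no peak of either factor gained or lost. The region Msr1 22785 (chr8:39619638-39620149), annotated to exon 5 of 10, had IRF8 scores of 193 in control and 196 after IL-4, in the top 0.618% and 0.682% of the lists. C/EBPα scored 44.9 and 52.8 there, with no JUNB peak. IRF8 at this coding exon was thus nearly the same in the 2 conditions and among the highest of the IRF8 lists.

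Next to it, Msr1 23656 (chr8:39618826-39619210), with the ETS-IRF match shown, had IRF8 scores of 101 and 91.1 and no C/EBPα or JUNB peak. The same held for Msr1 40858 (chr8:39601530-39602111, intron 8), with IRF8 scores of 91.3 and 105. These 2 regions were in the top 3.62% to 4.64% of the IRF8 lists without a C/EBPα peak in either condition. In contrast, Msr1 -2067 (chr8:39644544-39644930), upstream of the promoter, had all 3 factors in control: C/EBPα scored 88.2 and then 61.8, IRF8 67.9 and 57.5, and JUNB 7.29 with no peak after IL-4. The annotation places this and the other upstream Msr1 regions in an intron of a microRNA record, whereas in RefSeq they overlap no gene. At Msr1 47788 (chr8:39594596-39595185) the factors differed in direction, with C/EBPα at 11.6 and 4.68 and IRF8 at 25.9 and 48.4.

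Marco, the other class A receptor gene, whose product binds bacteria and inhaled particles, stood apart in that none of its 9 regions had peaks of both C/EBPα and IRF8 in either condition. Over all members 26 of 60 control regions (43.3%) and over the whole series 29.9% had both. Its highest score in any list was IRF8 at Marco 55320 (chr1:120449590-120449938), 19.0 in control and 12.9 after IL-4, the lowest maximum of the 9 genes. C/EBPα was highest at 8.31, at Marco -22627 (chr1:120527630-120527792), a control peak on a long terminal repeat with no IL-4 counterpart. The IRF8 peak at Marco -5426 (chr1:120510376-120510644), with the ETS-IRF match shown, scored 18.7 in control and was not listed after IL-4. It was the highest-scoring member peak of any factor that was found in control only. IRF8 peaks at Marco 168, in the 5′ UTR, and Marco -27671 were listed only after IL-4, at 4.99 and 6.9.

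Stab1 encodes stabilin-1, a multifunctional scavenger receptor of macrophages and sinusoidal endothelium. Its leading region, Stab1 2303 (chr14:31166093-31166661, intron 1), had C/EBPα scores of 57.1 in control and 73.9 after IL-4 and IRF8 scores of 17.2 and 23.9, both somewhat higher after IL-4. A second C/EBPα peak in the same intron, Stab1 1502, scored 11.4 in control and was not listed after IL-4, the highest C/EBPα member peak of that kind. The 4 upstream regions assigned to Stab1 lie inside the neighbouring gene Nisch. One of them, Stab1 -14518, had C/EBPα scores of 13.6 and 3.84, the largest decrease among shared C/EBPα member peaks, to 0.282 of control. Another, Stab1 -16733, in an exon of Nisch, had a C/EBPα peak of 10.8 only after IL-4.

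Cd163 encodes the receptor that clears haemoglobin bound to haptoglobin. Its highest region lay upstream, Cd163 -31229 (chr6:124273081-124273763), with C/EBPα at 91.1 in control and 98.1 after IL-4 and IRF8 at 65.2 and 76.6, in the top 2.44% and 7.75% or better of the lists. At Cd163 -7036 (chr6:124297241-124297837), which overlaps the predicted gene Gm6308, IRF8 scored 51.9 and 75.1 while C/EBPα scored 8.18 and 2.98. The intronic region Cd163 15091 (chr6:124319548-124319937), with the AP-1 match shown, had JUNB at 6.1 in control and no JUNB peak after IL-4. C/EBPα there was 32.6 and 29.7 and IRF8 19.8 and 21.1, so both stayed while the JUNB peak was no longer listed. IRF8 at Cd163 2257 scored 9.38 in control only, and at Cd163 -21739 IRF8 scored 7.79 after IL-4 only, beside C/EBPα at 4.97 and 11.8.

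Mertk encodes a main TAM kinase of macrophages in the engulfment of apoptotic cells. All 5 of its regions were intronic, and its 3 C/EBPα and 4 IRF8 control peaks were all found again after IL-4. At Mertk 46970 (chr2:128745640-128746148, intron 4) C/EBPα scored 97.1 in control and 103 after IL-4, and IRF8 35.0 and 50.1. At Mertk 10655 (chr2:128709366-128709938, intron 1), with the ETS-IRF match shown, the order was the other way round, with IRF8 at 77.0 and 98.8 (top 6.06% and 4%) and C/EBPα at 11.0 and 13.1 (top 50.5% and 44.3%). A C/EBPα peak of 11.1 appeared only after IL-4 at Mertk 47654, close to the leading C/EBPα region, the highest C/EBPα member peak listed in IL-4 only. JUNB had no Mertk peak.

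Axl encodes a second TAM kinase. It had few peaks but 1 of the strongest IRF8 regions, Axl 11810 (chr7:25776674-25777173, intron 6), with IRF8 at 158 in control and 204 after IL-4, in the top 1.34% and 0.592% of the lists. C/EBPα scored 19.7 and 19.8 there, and JUNB had no peak in control and a score of 6.37 after IL-4, the highest of the JUNB member peaks listed in IL-4 only. At Axl 3821 (chr7:25784765-25785083, intron 4) IRF8 scored 5.59 and 22.7, 4.06-fold higher after IL-4 and the largest ratio at a shared IRF8 member peak, and C/EBPα had no peak and then 7.77. A further IRF8 peak, Axl 1588, scored 7.31 after IL-4 only. The one C/EBPα region without IRF8, Axl -2097, scored 23.7 and 19.1.

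Gas6, the bridging ligand, had the fewest peaks, 1 C/EBPα and 3 IRF8 peaks in each condition, all shared. At Gas6 -6863 (chr8:13501231-13501589) C/EBPα scored 23.0 in control and 21.1 after IL-4, whereas IRF8 scored 18.3 and 6.03, at 0.330 of control. At Gas6 1124 (chr8:13493171-13493651, intron 2, where Tmem255b also overlaps) IRF8 went the other way, from 5.71 to 13.8 or 2.41-fold. The 2 receptor genes and their ligand thus each held shared C/EBPα and IRF8 regions, but the highest IRF8 scores at Gas6 were far below those at Mertk and Axl, whereas its C/EBPα scores were close to the highest at Axl (23.7 and 19.8).

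**Figure D3:**
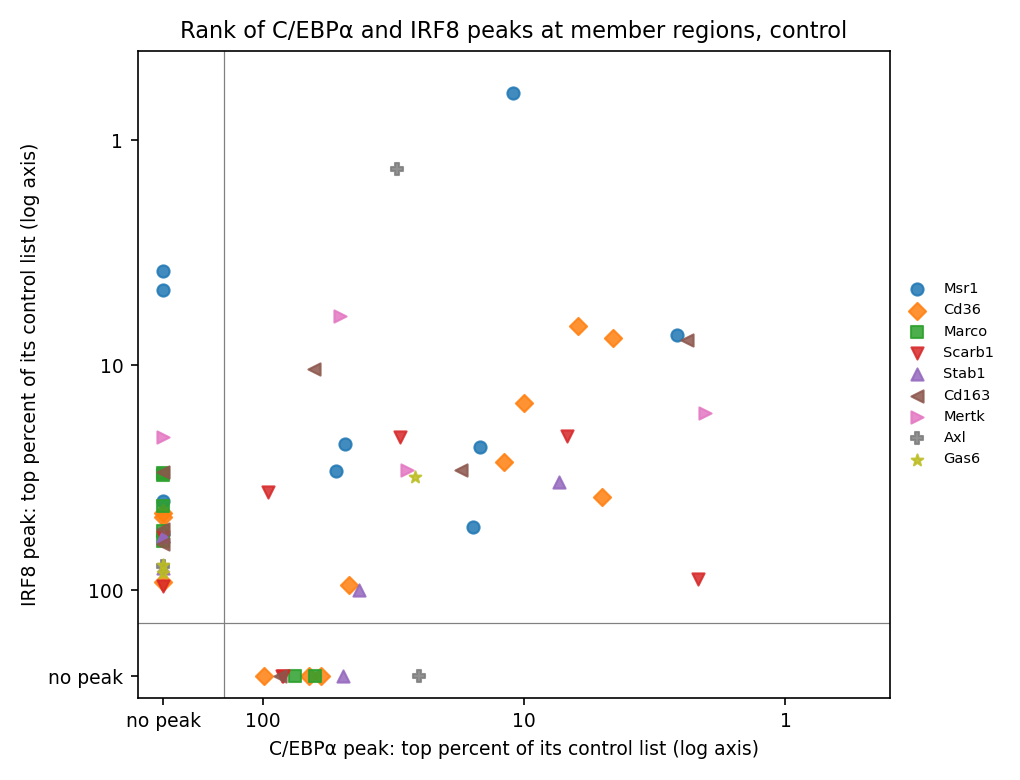
Rank of each member region in the control lists, as the top percent for C/EBPα (horizontal) and IRF8 (vertical) on log axes that run from weak to strong, with regions lacking one factor's peak drawn in the "no peak" strips and 1 symbol per gene. Cd163 -31229 and Msr1 -2067 stand high for both factors, Scarb1 67209 is in the top 2.16% for C/EBPα and 89.3% for IRF8, Axl 11810 is in the top 1.34% for IRF8 and 30.5% for C/EBPα, and all Marco regions lie in the strips.

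After IL-4 most member peaks were found again. Of the control peaks, 31 of 36 for C/EBPα (86.1%, Wilson 95% interval 71.3% to 93.9%), 44 of 50 for IRF8 (88.0%, 76.2% to 94.4%) and 3 of 5 for JUNB (60%, 23.1% to 88.2%) overlapped an IL-4 peak by at least 1 bp. The intervals cover the number of peaks only, not variation between cultures. The control-only peaks numbered 5, 6 and 2, where the shares over all peaks were 21.4%, 21.4% and 64.2% for C/EBPα, IRF8 and JUNB. The IL-4-only member peaks numbered 9 of 40 (22.5%), 9 of 53 (17.0%, interval 9.20% to 29.2%) and 3 of 6 (50%), against 22.0%, 30.4% and 39.2% of all IL-4 peaks. For each factor the interval of the retained share included the share over all peaks, so control member peaks were not distinguishable from the background in how often they were found again. The interval of the IL-4-only share included the background for C/EBPα (12.3% to 37.5%) and JUNB (18.8% to 81.2%). For IRF8 it did not, since the 30.4% of all IL-4 peaks lies above it. The 9 IRF8 member peaks in IL-4 only had a median score of 5.04, and member IRF8 peaks scored above the list median, as given above. The part of score in this lower share was not tested. Control-only peaks had a median control score of 5.32 for C/EBPα against 23.7 for retained peaks, and 3.62 for IRF8 against 19.2. For JUNB the medians were nearly equal, 6.70 (2 peaks) against 6.88 (3 peaks).

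At the peaks present in both conditions, the median ratio of the IL-4 to the control score was 1.03 for C/EBPα (31 pairs, all pairs 0.997), 1.17 for IRF8 (44 pairs, all pairs 1.06) and 1.38 for JUNB (3 pairs, all pairs 0.685). Scores were higher after IL-4 at 17 C/EBPα pairs (54.8%, against 49.7% of all pairs) and lower at 14. For IRF8 they were higher at 28 pairs (63.6%, against 55.4% of all pairs) and lower at 16. At least 2-fold higher were 2 C/EBPα, 2 IRF8 and 1 JUNB pairs, beside 7.72%, 11.3% and 2.99% of all pairs. At least 2-fold lower were 3, 3 and 0, beside 6.56%, 7.96% and 29.9%. The 2 higher C/EBPα pairs were Cd36 -6603 (2.72 and 8.13) and Cd163 -21739, both weak in control, and the 3 lower were Stab1 -14518, Cd163 -7036 and Msr1 47788. The 2 higher IRF8 pairs were Axl 3821 and Gas6 1124, and the 3 lower Cd36 -7696, Gas6 -6863 and Cd163 17247 (7.71 and 3.02). The single JUNB pair was Cd36 -7696, and all 3 JUNB pairs belonged to Cd36.

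Per gene, every shared IRF8 peak scored higher after IL-4 at Scarb1 (5 of 5, median 1.36-fold) and Axl (2 of 2), and every shared C/EBPα peak at Mertk (3 of 3, median 1.06-fold). At Marco 3 of 4 shared IRF8 peaks were lower (median 0.715). Cd36 had 7 of 9 shared C/EBPα peaks higher (median 1.23-fold) and Msr1 4 of 6 lower (median 0.781). Over the whole series 55.4% of IRF8 pairs and 49.7% of C/EBPα pairs scored higher after IL-4, and the counts per gene are small. Peaks of 1 gene come from the same pair of libraries and are not replicates of the IL-4 treatment.

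**Figure D4:**
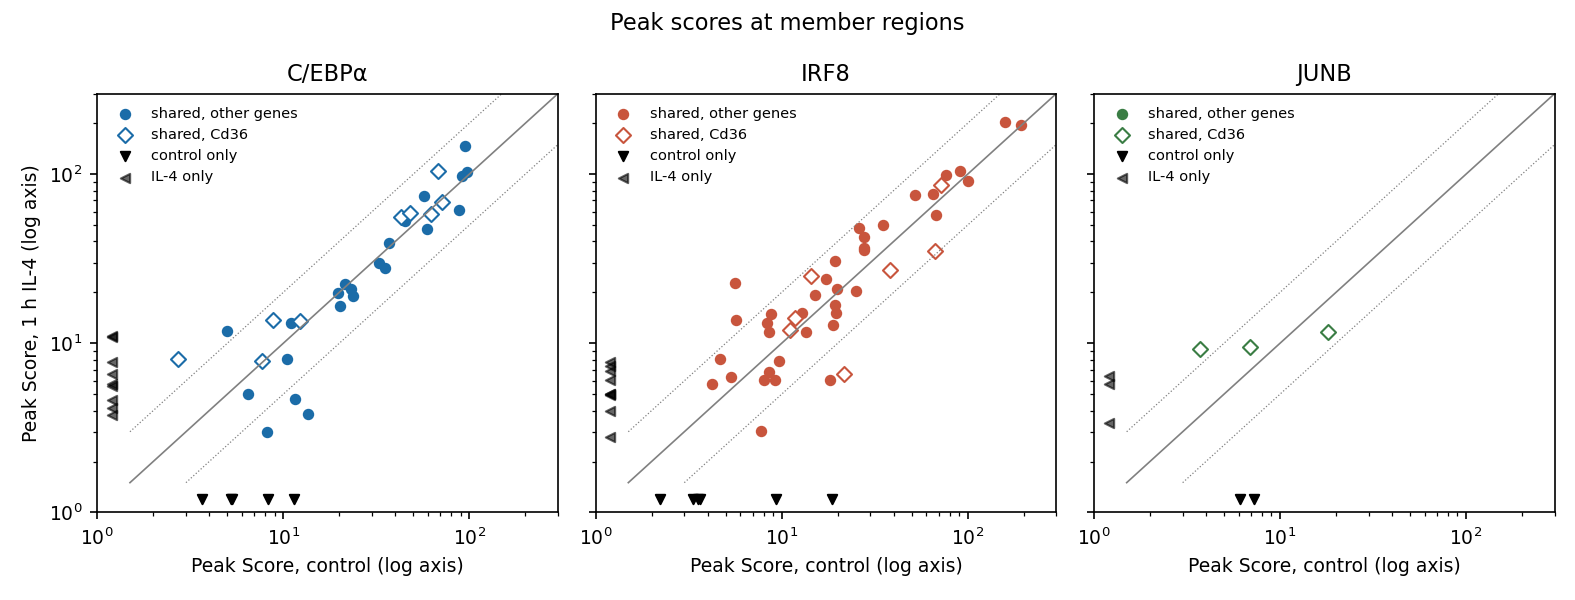
Peak Score in control (horizontal) against Peak Score after 1 h IL-4 (vertical) at the 72 member regions, on log axes, for C/EBPα, IRF8 and JUNB, with diamonds for Cd36, circles for the other genes, triangles at the edges for peaks in 1 condition only, the solid line for equal scores and the dotted lines for 2-fold differences. Most shared peaks lie within the 2-fold lines and the peaks in 1 condition only are at 18.7 or below.

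C/EBPα and IRF8 shared regions at the member genes more often than over the series. In control 26 of 60 bound regions had both (43.3%, 31.6% to 55.9%, against 29.9% of all bound regions), and after IL-4 28 of 65 (43.1%, 31.8% to 55.2%, against 28.7%). The share was nearly the same in both conditions with all peaks, but with scores of at least 10 it was 52.6% in control and 36.4% after IL-4. The share over all regions at that score was not computed, so the comparison with the series holds for all peaks only. Member peaks also scored above the list medians, as given above, and the part of this in the share was not tested. All 3 factors met at 5 of 60 control regions (8.33%, against 5.38%) and at 6 of 65 after IL-4 (9.23%, against 3.08%), and 5 of these 6 were in Cd36, the sixth being Axl 11810. All 8 member regions with a JUNB peak also had C/EBPα and IRF8 peaks, as did 70.4% of the 4807 JUNB regions of the series. Of the 72 regions, 27 had IRF8 alone of the 3 factors, 13 C/EBPα alone and 0 JUNB alone. The same shares over all regions were not computed, so these 3 counts stand without a background.

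Other genes of uptake and efferocytosis give the setting. A list of 40 symbols (22 other receptors, 9 bridging and eat-me molecules, 9 engulfment signalling genes) had peaks at 35. They held 133 C/EBPα peaks in control and 138 after IL-4, 182 and 199 IRF8 peaks, and 44 and 20 JUNB peaks. Of their control peaks 27 C/EBPα (20.3%), 29 IRF8 (15.9%) and 25 JUNB peaks (56.8%) were found in control only, where the shares over all peaks were 21.4%, 21.4% and 64.2%. Of the IL-4 peaks 33 (23.9%), 49 (24.6%) and 1 (5%) were in IL-4 only, where the shares over all peaks were 22.0%, 30.4% and 39.2%. The share of JUNB peaks found in control only was thus near that of the whole list, whereas the share in IL-4 only (1 of 20) was below it. At their shared JUNB peaks the median ratio was 0.475 (19 pairs), beside 0.685 over all JUNB pairs. The 1.38 of the 3 Cd36 pairs did not keep its direction with lists cut to equal length (0.943, 2 pairs) or with scores of at least 10 (0.643, 1 pair). The genes with most peaks were Elmo1, an activator of Rac in engulfment, with 101 over the 6 lists, Vav3, a guanine nucleotide exchange factor, with 92, and Thbs1, a bridging molecule bound by Cd36, with 54. All of them had fewer JUNB peaks after IL-4, as did 1747 of the 3188 genes with a JUNB peak: Elmo1 went from 6 to 2, Vav3 from 6 to 2 and Thbs1 from 2 to 1. Peaks changed in the lists of all 3 factors at these 3 and at Havcr2, Cd93, Lrp1, Itgav, Itgb3, Lgals3 and Anxa1. Each had fewer JUNB peaks after IL-4, among them the engulfment receptor Lrp1 (2 to 1) and Lgals3, galectin-3 (4 to 2). A changed JUNB peak was part of the rule that picked them. With 25 such peaks in control only and 1 in IL-4 only, that direction was nearly set by the rule. The share of all genes changed for all 3 factors was not computed.

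The lists also carried peaks at macrophage loci used as a check of the cell label. Csf1r had 39 peaks over the 6 lists, Emr1 28, Itgam 19, Lyz2 13, Sfpi1 (PU.1) 11 and Cd68 7. The T-cell gene Cd3e and the globin gene Hbb-b1 had 0, whereas the epithelial gene Epcam had 13, so peak counts per nearest gene did not follow cell type markers throughout.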

How the data were processed

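Peaks were measured by ChIP-seq in 6 libraries. The methods of the study state alignment to mm10 (BWA), MACS2 peak calls and removal of blacklisted regions by the authors, who deposited annotated peak lists per library; the submitters' processing notes name BWA 0.7.10, SAMtools 0.1.19, HOMER 4.2 and MACS2 2.0.10. The deposited Peak Score is undocumented and was taken as -log10 of a p or q value, although its lowest scores are below what the stated q-value limit would give. Depth and library kit per sample are not given in the sources used here, so no depth-based interval was computed. Samples were grouped by factor and IL-4 from the labels. Peaks of the 6 lists were merged where they shared at least 1 bp, and 2 conditions were paired within a factor in the same way. With 1 sample per group no test was run and no p-value is given.

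The member genes and gene lists were chosen with earlier results of these data known. All members were named, with each gene's highest region per factor, regions with a promoter peak or with all 3 factors, and the 3 highest gained and lost peaks per factor; of other genes, the 3 with most peaks and those changed for all 3 factors. Sfpi1, the older symbol of Spi1, was looked up after the lists were opened. Some marker loci that were looked up are not reported here. Alternatives were a 50% overlap, a score of at least 10, rank matching (equal list lengths), 200 bp widths, a 100 kb limit, scores over the list median, and promoters within 2000 bp. Python 3.11.15, pandas 2.3.3, numpy 2.4.6, scipy 1.17.1 and matplotlib 3.10.9 were used, and the overlap code was tested on simulated data (8 of 8 checks within limits).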

Additional observations from a re-analysis of the deposited data

Results flagged for a closer look

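At Cd36 -7696 the change after IL-4 had opposite directions in the lists of 2 factors: the JUNB score was 2.49 times the control score and the IRF8 score 0.306 times. It is listed because IRF8 and JUNB, in the same 2 conditions, differed by at least 2-fold in opposite directions. The JUNB control peak scored 3.74, in the top 95.2% of its list, so the JUNB ratio is lost both with lists cut to equal length and with scores of at least 10. The difference was not tested, since there was 1 library for each factor and condition.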

How the results depend on the processing

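No paired analysis was possible because each factor and condition had a single sample. Of 67 recomputed values, 58 stayed within the 95% interval, 1.5 times or 1 SD of the reported value, and 9 moved. A Peak Score of at least 10 left 26 C/EBPα member peaks after IL-4, 32 and 34 IRF8 member peaks in control and after IL-4, and 1 JUNB member peak in each condition. That single JUNB pair, Cd36 8834, made the share retained 100% and the median JUNB ratio 0.643, below control. Rank matching, which cuts the longer list to the length of the shorter, left 3 JUNB control peaks at the member genes and gave a median JUNB ratio of 0.943 from 2 pairs, so the direction of that ratio depends on weak peaks. With scores divided by the list median it was 1.76. Counting promoters as within 2000 bp of the TSS raised the promoter share of IRF8 member peaks after IL-4 to 13.2%. Of all peaks in that list 16.6% lay within the same limit. The share of member regions with C/EBPα and IRF8 was 43.3% to 52.6% in control and 36.4% to 44.4% after IL-4, with the widest gap between conditions, 52.6% against 36.4%, at a score of at least 10. Unknown depth limits all score comparisons, and an unlisted peak may be a site below the caller's threshold.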
